A study of Homo sapiens with 4 samples.

Results

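A list of 35 genes of autophagy and the lysosome, chosen by name, was read across 4 arrays, with each gene represented by the probe set (the group of oligonucleotides that measures 1 transcript) with the highest mean over the arrays. The set held 19 genes of the autophagy machinery, 14 genes of lysosomal membrane proteins, enzymes and other lumenal proteins, and the transcription factors TFEB and TFE3. All 35 were among the 19775 genes with a probe set of their own, and 34 reached the level minimum, a mean log2 of 5 over the arrays (intensity 32), as did 13794 genes in all. ULK2, a kinase related to ULK1, was the member under that minimum. Autophagy is the route by which a cell wraps part of its own cytoplasm in a membrane, the autophagosome, and delivers it to the lysosome, the acidic compartment in which hydrolases break it down. The steps run from a starvation-sensitive kinase complex, through a lipid kinase complex and conjugation of small ubiquitin-like proteins of the ATG8 family to the growing membrane, to fusion with a lysosome. In pigment cells and melanoma the lysosome has a close relative, the melanosome, and transcription factors of the MITF, TFEB and TFE3 family control genes of both.

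The arrays (HG-U133 Plus 2.0) held RNA of A375 and SK-MEL-28, established human melanoma lines with a mutated, active BRAF kinase, collected 48 h after transfection. Each line was transfected with a negative control siRNA or with siRNA that targets the zinc-finger transcription factor ZIC5, which gave 4 groups of 1 array each. The siRNA sequences and their number are not given in the sources used here. A difference named after the siRNA is ZIC5 siRNA minus control siRNA on the log2 intensity scale, within 1 line, and a line difference is SK-MEL-28 minus A375. With 1 array per group, siRNA differences inside a line could not be set against replicate spread. In bulk RNA a change in the amount per cell and in the share of cells that express a gene cannot be told apart.

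The targeted gene gave no check on the labels. Its intensity was 16.8 (control) and 14.1 (ZIC5 siRNA) in A375 cells, beside 21.4 and 15.5 in SK-MEL-28 cells, all under the level minimum. Of 8 melanocyte lineage markers 7 were measured, and their summed intensity ranged from 1751 to 2316 on the A375 arrays and from 43146 to 46522 on the SK-MEL-28 arrays. On the A375 control array the pigment cell antigen MLANA, at 13.9, and the pigment enzyme TYRP1, at 7.51, were under 32, while SOX10 was at 895 and S100B at 413. Of the markers of other cell types, 2 of 4 fibroblast, 2 of 3 endothelial and 1 of 3 leukocyte markers with a probe set were at the level minimum, with summed intensities of 238 to 278, 108 to 131 and 80.5 to 93.7 on the 4 arrays. The 4 keratinocyte markers, which include the widely expressed keratin KRT10, summed to 3396 and 3724 on the A375 arrays, above the 1609 and 1535 of the SK-MEL-28 arrays. KRT14 among them was at 358 (control) and 320 (ZIC5 siRNA) in A375 and at 32.1 and 42.5 in SK-MEL-28. KRT5 and KRT1 lay between 34.8 and 43.5 on all 4 arrays. The median intensity over all probe sets lay between 38.4 and 39.4 on the 4 arrays, whose number limits the precision.

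TFEB and TFE3 bind a short palindromic element, known as CLEAR, that is found in promoters of lysosomal genes. RefSeq promoter windows (GRCh38.p14, 250 bases before and 50 from the transcript start on) were matched for 30 members, in 37 windows. The CLEAR core TCACGTG, searched on both strands, occurred in 6 of the 30: LAMP1, CTSA, CTSD, NEU1 and MCOLN1 among the lysosomal genes and ATG14 among the machinery. It occurred in 3.71% of all 35116 windows and in 4.49% of the 27305 genes they stand for. The shorter E-box CACGTG, which the core contains, was in 7.26% of windows, in 8.77% of genes and in the same 6 members. The element TGATGNAA, a form of the site read by ATF4 with C/EBP factors, was in 3.62% of windows, in 4.46% of genes and in 0 of the 30 members. A match describes letters in the window and not a bound site, and a window without one says nothing of the factor. The stretches that hold the matches are shown 5′ to 3′ on the strand of the gene, with the matches in capitals, because the siRNA differences of these genes can be read beside them.
LAMP1 (chr13:113297039-113297244, plus strand): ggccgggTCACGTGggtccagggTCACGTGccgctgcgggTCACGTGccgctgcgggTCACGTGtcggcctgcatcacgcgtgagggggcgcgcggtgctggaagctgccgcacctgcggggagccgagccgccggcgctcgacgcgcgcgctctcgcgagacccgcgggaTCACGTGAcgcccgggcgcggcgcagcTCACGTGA
MCOLN1 (chr19:7522564-7522623, plus strand): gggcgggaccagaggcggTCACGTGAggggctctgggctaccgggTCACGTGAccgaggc
CTSA (chr20:45891275-45891334, plus strand): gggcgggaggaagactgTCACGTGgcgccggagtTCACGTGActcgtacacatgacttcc
CTSD (chr11:1763938-1763997, minus strand): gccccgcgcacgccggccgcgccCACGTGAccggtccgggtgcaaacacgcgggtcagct
NEU1 (chr6:31862912-31862971, minus strand): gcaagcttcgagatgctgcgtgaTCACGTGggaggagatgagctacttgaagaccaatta
ATG14 (chr14:55411831-55411890, minus strand): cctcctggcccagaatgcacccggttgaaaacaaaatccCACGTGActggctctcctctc
LAMP1, a heavily glycosylated protein of the lysosomal membrane, held 6 matches between positions -193 and 6 from the start, and MCOLN1, the lysosomal calcium channel, and CTSA, a carboxypeptidase that also protects other lysosomal enzymes, held 2 each. The 8-base form TCACGTGA made up both matches of MCOLN1, 1 of the 2 of CTSA and 2 of the 6 of LAMP1.

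In A375 most of the genes stood higher with ZIC5 siRNA. Of the 34 members at the level minimum 29 were higher, against 48.5% of all genes, and 19 were higher by at least 0.5, against 15.1%. Their median difference was 0.60, and that of all genes was -0.01. MAP1LC3B, ULK1 and GABARAPL1 were at least 2-fold higher, 3 of 34 members where 3.89% of all genes were, and 0 members were at least 2-fold lower, where 5.05% of all genes were. GABARAPL1 lay just inside the 2-fold bound, at 2.18-fold, and WIPI1 just outside, at 1.99-fold. The machinery had a median of 0.54 over 18 genes, from -0.26 for ATG9A to 1.58 for MAP1LC3B, and the lysosomal genes a median of 0.70 over 14 genes, from -0.33 for LAMP2 to 0.93 for CTSB. The ranges overlap: 9 of 18 machinery genes and 9 of 14 lysosomal genes were higher by at least 0.5, and the genes past 2-fold were all of the machinery.

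In SK-MEL-28 the siRNA differences of these genes were small. On the probe sets used, the largest differences at the level minimum were -0.42 for GABARAP and 0.41 for the protease CTSB. So 0 of 34 members were 2-fold higher (background 0.776%) and 0 were 2-fold lower (background 2.12%). The median was 0.07 over all members, 0.11 over the machinery and 0.07 over the lysosomal genes, and 23 of 34 were higher, against 50.2% of all genes. On those probe sets none was higher by 0.5 or more, where 6.18% of all genes were. Other probe sets at the level minimum went further, among them CTSB at up to 0.91, ATG12 at -1.37 and NPC1 at -0.85. The absolute difference was larger in A375 than in SK-MEL-28 for 28 of the 34, against 64.9% of all genes. In both lines 22 members were higher (31.5% of all genes) and 4 were lower (32.5%), namely GABARAP, ATG9A, TFEB and LAMP2. Across the 34 members, which share their 4 arrays, the A375 and SK-MEL-28 differences were related with a Pearson r of 0.463, beside 0.441 across all genes.

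**Figure D1:**
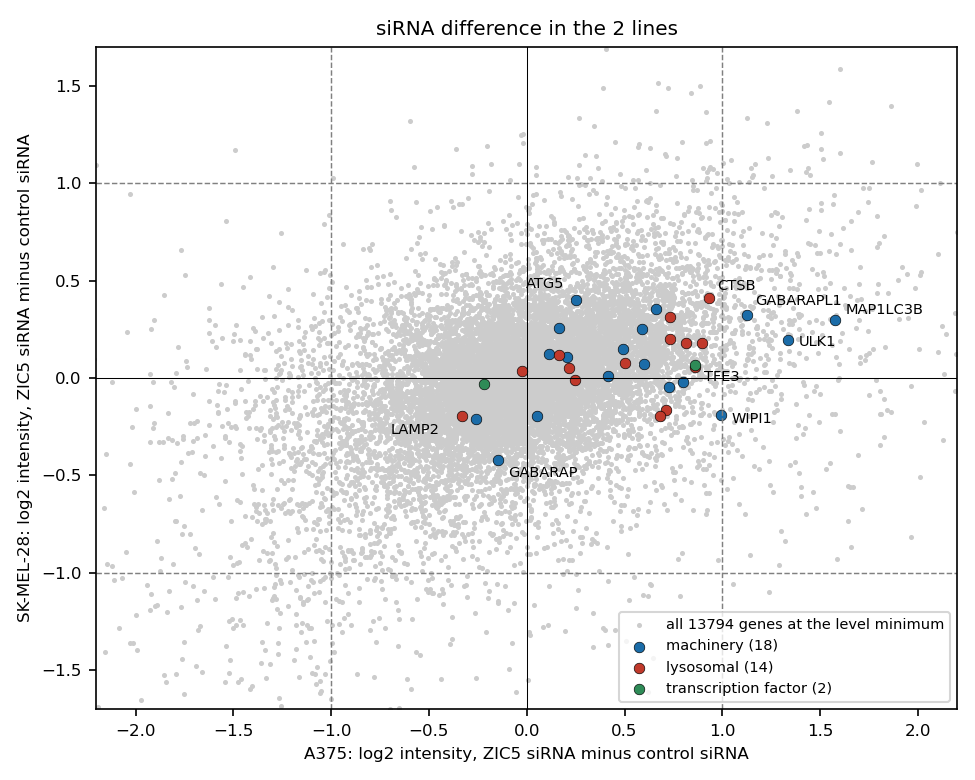
siRNA difference (log2 intensity, ZIC5 siRNA minus control siRNA) in A375 on the x axis and in SK-MEL-28 on the y axis, with 1 point per gene at the level minimum, grey for all genes and coloured for members; dashed lines mark 2-fold, and 129 genes lie outside the axes. The members spread from -0.33 to 1.58 along the A375 axis but only from -0.42 to 0.41 along the SK-MEL-28 axis.

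Autophagy starts at the ULK kinase complex. ULK1, its kinase, had A375 intensities of 182 (control) and 460.3 (ZIC5 siRNA) and SK-MEL-28 intensities of 161 (control) and 184 (ZIC5 siRNA). The A375 ZIC5 siRNA array therefore stood apart from the other 3, which lay between 161 and 184, and the A375 difference was 1.34 or 2.53-fold, against 0.20 in SK-MEL-28. ATG13, the scaffold that holds the kinase complex, differed by 0.59 and 0.25 on a probe set whose name marks probes that may bind other transcripts. The other ATG13 probe sets at the level minimum differed by 0.14 and -0.01 in A375 and by 0.14 and -0.33 in SK-MEL-28, so the A375 value of ATG13 was not shared. ULK2 differed by -0.66 and -0.83 with intensities from 16.9 to 46.2, and another of its probe sets, also under the level minimum, by -1.28 and -1.09. These values lie near the low end of the scale.

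The lipid kinase complex that follows is built on the scaffold BECN1, with ATG14 in the form that starts autophagosomes and UVRAG in the form that acts on later vesicles. All 3 were higher in A375: ATG14 by 0.66, UVRAG by 0.49 and BECN1 by 0.42. Their SK-MEL-28 differences were 0.36, 0.15 and 0.01, and that of BECN1 turned to -0.03 after loess and -0.01 after quantile normalization. The membrane protein ATG9A, which supplies vesicles to the growing membrane, was lower in both lines, by differences of -0.26 and -0.21.

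WIPI proteins read the lipid that the kinase makes. WIPI1, known from autophagosome and melanosome formation, had A375 intensities of 243 (control) and 484 (ZIC5 siRNA) and SK-MEL-28 intensities of 2259 (control) and 1983 (ZIC5 siRNA). Both SK-MEL-28 arrays lay far above both A375 arrays. The siRNA difference was 0.996 in A375, against -0.19 in SK-MEL-28, and its other probe set gave 1.04 and -0.19. WIPI2, which recruits the conjugation machinery, had A375 intensities of 888 (control) and 961 (ZIC5 siRNA) and SK-MEL-28 intensities of 619 (control) and 674 (ZIC5 siRNA), siRNA differences of 0.11 and 0.12.

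The conjugation genes were higher in A375 on the probe set used, all 5 of them, with a median of 0.25. ATG12, the ubiquitin-like protein joined to ATG5, differed by 0.73 there, ATG16L1, which places the conjugate on the membrane, by 0.60, and ATG5, the activating enzyme ATG7 and the protease ATG4B by 0.25, 0.21 and 0.16. In SK-MEL-28 they ranged from -0.05 for ATG12 to 0.40 for ATG5. The probe sets of ATG12 and ATG5 disagreed in both lines. Those of ATG7 disagreed in SK-MEL-28, where another at the level minimum gave -0.55 against 0.11 for the one used. The lowest ATG12 probe set had A375 intensities of 132 (control) and 55.1 (ZIC5 siRNA) and SK-MEL-28 intensities of 100.2 (control) and 38.9 (ZIC5 siRNA), differences of -1.26 and -1.37 against 0.73 and -0.05 for the one used. The lowest ATG5 probe set had A375 intensities of 76.2 (control) and 23.0 (ZIC5 siRNA) and SK-MEL-28 intensities of 95.2 (control) and 65.0 (ZIC5 siRNA), differences of -1.73 and -0.55 against 0.25 and 0.40. Over the 20 members with at least 2 probe sets at the level minimum, all probe sets of a gene had 1 sign in 15 members for A375, in 10 for SK-MEL-28 and in 15 for the line difference under control siRNA. The lowest probe sets of ATG12 and ATG5 were lower with ZIC5 siRNA in both lines, where lowest refers to the mean over the arrays among the 3 probe sets of the gene.

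**Figure D2:**
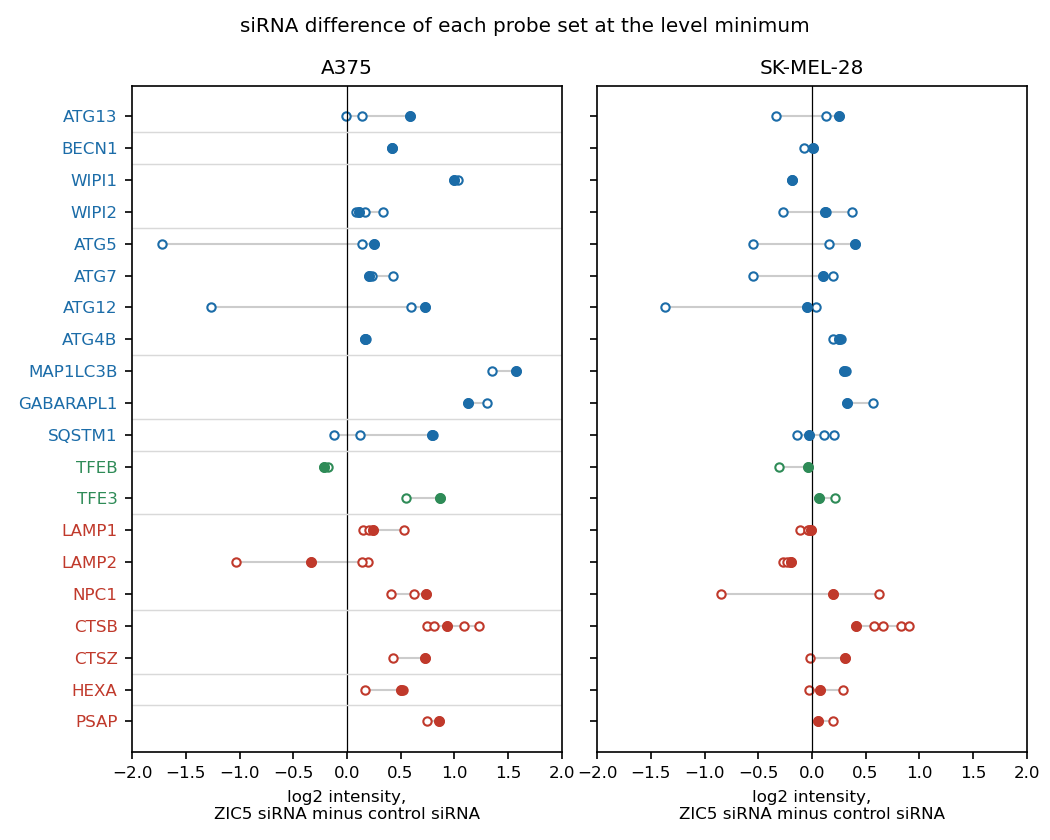
siRNA difference (log2 intensity, ZIC5 siRNA minus control siRNA) of every probe set at the level minimum, for the 20 members with at least 2, in A375 (left) and SK-MEL-28 (right). Filled points are the probe set used for the gene, open points the others, and grey bars their range; the open points of ATG12, ATG5 and LAMP2 at -1.26, -1.73 and -1.03 in A375 lie on the other side of 0 from at least 2 probe sets of their gene.

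The ATG8 family, whose members are attached to the membrane and draw in cargo, differed among themselves. MAP1LC3B, the usual marker of autophagosomes, had A375 intensities of 1009 (control) and 3009.9 (ZIC5 siRNA) and SK-MEL-28 intensities of 1631 (control) and 2003 (ZIC5 siRNA). It was 2.98-fold higher with ZIC5 siRNA in A375 and 1.23-fold higher in SK-MEL-28, and the A375 ZIC5 siRNA array was the highest of the 4. GABARAPL1 had A375 intensities of 139 (control) and 302 (ZIC5 siRNA) and SK-MEL-28 intensities of 118 (control) and 148 (ZIC5 siRNA), 2.18-fold and 1.25-fold higher, again with the A375 ZIC5 siRNA array above the other 3. Both genes have a near-identical copy (MAP1LC3B2 and GABARAPL3) whose RNA the probes may also read. The second probe set of each gave 1.36 and 0.32 for MAP1LC3B and 1.31 and 0.57 for GABARAPL1. GABARAP, by contrast, had A375 intensities of 3079 (control) and 2782 (ZIC5 siRNA) and SK-MEL-28 intensities of 2614 (control) and 1954 (ZIC5 siRNA), lower in both lines by differences of -0.15 and -0.42. GABARAPL2 had A375 intensities of 2419 (control) and 2507 (ZIC5 siRNA) and SK-MEL-28 intensities of 1672 (control) and 1463 (ZIC5 siRNA), differences of 0.05 and -0.19, and its A375 value turned to -0.00384 after quantile normalization. SQSTM1 (p62), the receptor that ties ubiquitinated cargo to this family, had A375 intensities of 1608 (control) and 2795 (ZIC5 siRNA) and SK-MEL-28 intensities of 4199 (control) and 4133 (ZIC5 siRNA), an A375 difference of 0.80 against -0.02 for SK-MEL-28. It had 4 probe sets at that minimum, and 3 of them were higher in A375, by 0.12, 0.80 and 0.80, and the fourth differed by -0.12. With the median over its probe sets the A375 difference was 0.22.

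The transcription factors differed from each other. TFE3 had A375 intensities of 809 (control) and 1472 (ZIC5 siRNA) and SK-MEL-28 intensities of 476 (control) and 499 (ZIC5 siRNA), an A375 difference of 0.86 against 0.07 for SK-MEL-28. Its second probe set gave 0.55 and 0.21. TFEB had A375 intensities of 65.3 (control) and 56.2 (ZIC5 siRNA) and SK-MEL-28 intensities of 69.4 (control) and 67.9 (ZIC5 siRNA), differences of -0.22 and -0.03, with the lower A375 value on the ZIC5 siRNA array. Among the 6 members with a CLEAR core in the window, the A375 differences were 0.81 for CTSA, 0.71 for CTSD, 0.68 for NEU1, 0.66 for ATG14, 0.25 for LAMP1 and -0.03 for MCOLN1. Their median was 0.67, beside 0.59 for the 23 members at the level minimum with a window and no match. In SK-MEL-28 the medians were 0.01 and 0.11. LAMP1, with the most matches, and MCOLN1, with 2 of the 8-base form, had the smallest A375 differences of the 6. CTSB, UVRAG, LAMP2, HEXA and PSAP had no window and entered neither median. A part of the element in the siRNA differences was not tested.

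Cathepsins, the proteases of the lysosome, had siRNA differences of like size in A375 among the members, though not among the further hydrolases. All 5 member cathepsins were higher with ZIC5 siRNA in A375, by 0.71 to 0.93, and stayed so with loess, with quantile normalization and with the median over probe sets. CTSB had A375 intensities of 1208 (control) and 2303 (ZIC5 siRNA) and SK-MEL-28 intensities of 7397 (control) and 9830.4 (ZIC5 siRNA), 1.91-fold higher in A375 and 1.33-fold in SK-MEL-28. All 5 of its probe sets were higher in both lines, by 0.74 to 1.23 and by 0.41 to 0.91, and the probe set used gave the smallest of the SK-MEL-28 values. CTSD had A375 intensities of 185 (control) and 304 (ZIC5 siRNA) and SK-MEL-28 intensities of 1141 (control) and 1019.6 (ZIC5 siRNA), differences of 0.71 and -0.16. CTSL, CTSA and CTSZ were higher in A375 by 0.89, 0.81 and 0.73, and in SK-MEL-28 by 0.18, 0.18 and 0.31. The other CTSZ probe set, with intensities from 44.3 to 59.7, gave 0.43 in A375 and -0.02 in SK-MEL-28.

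PSAP, the precursor of the saposins that present lipids to hydrolases, had A375 intensities of 1829.9 (control) and 3320.3 (ZIC5 siRNA) and SK-MEL-28 intensities of 7826 (control) and 8146 (ZIC5 siRNA), differences of 0.86 and 0.06. The sialidase NEU1 differed by 0.68 and -0.20, the hexosaminidase subunit HEXA by 0.50 and 0.07, and the galactosidase GLA by 0.22 and 0.05. With the median over its probe sets HEXA differed by 0.17 and -0.03. The cholesterol exporters of the lysosome parted: NPC1, in the membrane, differed by 0.73 in A375 and its lumenal partner NPC2 by 0.17, against 0.20 and 0.12 in the other line. The other NPC1 probe sets at the level minimum, of low intensity, gave 0.41 and 0.62 in A375 but -0.85 and 0.63 in SK-MEL-28. Of the lysosomal members the membrane protein MCOLN1 had the smallest A375 difference in absolute size, followed by NPC2 and GLA. LAMP1 differed by 0.25 and -0.01, and MCOLN1 by -0.03 and 0.03, the latter turning to -0.01 after loess. LAMP2, a membrane protein that also serves as a receptor in chaperone-mediated autophagy, had A375 intensities of 802 (control) and 637 (ZIC5 siRNA) and SK-MEL-28 intensities of 3381 (control) and 2957 (ZIC5 siRNA), a difference of -0.33 in A375. Its other probe sets gave -1.03, 0.19 and 0.14 there, so no direction was shared there, while all 4 probe sets were lower in SK-MEL-28, by differences of -0.19 to -0.27. With the median over its probe sets the A375 difference was 0.17.

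**Figure D3:**
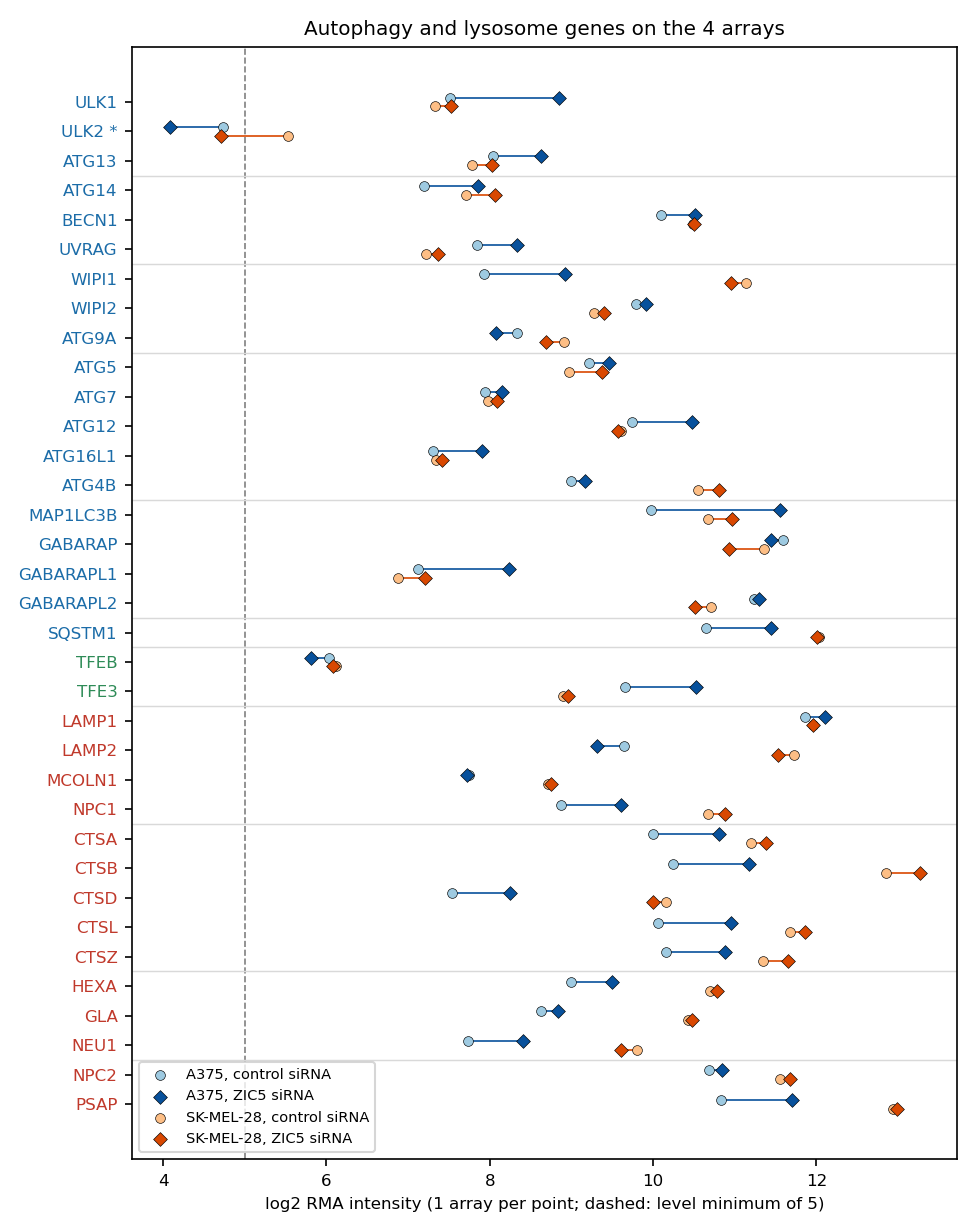
log2 RMA intensity of the 35 members on the 4 arrays, with 1 point per array and a line joining the control siRNA (circle) and ZIC5 siRNA (diamond) arrays of a line; names are blue for machinery, green for transcription factors and red for lysosomal genes, and the asterisk marks ULK2, under the level minimum. In A375 the diamonds lie to the right of the circles for 29 of the other 34 members, and the orange SK-MEL-28 points lie to the right of the blue A375 points for most red names.

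The siRNA effect over both lines was fitted with limma across all 13794 genes, with a term for the line, which means that its error reflects how far the lines disagree in their siRNA difference. At an adjusted p under 0.05 the fit called 0 of 34 members, as it called 0% of all genes. The lowest adjusted p among members was 0.322, for CTSB (mean difference 0.67, SE 0.17, unadjusted p 0.018, higher in both lines), beside 0.268 over all genes. At an unadjusted p under 0.05 limma gave 2 members, CTSB and CTSZ (0.52, SE 0.16, adjusted p 0.361), both higher, where 5.91% of all genes were higher at that level, and 0 members lower, where 7.31% were. MAP1LC3B (0.94, SE 0.35), ULK1 (0.77, SE 0.34) and GABARAPL1 (0.72, SE 0.27) had limma adjusted p-values of 0.386, 0.42 and 0.384, the lines differing in size. Whether the siRNA effect differed between the lines was not tested, because 1 array per group leaves no spread for an interaction.

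Most lysosomal genes stood higher in SK-MEL-28 than in A375, while line differences of the machinery lay on both sides of 0. Under control siRNA all 14 lysosomal members were higher in SK-MEL-28, with a median line difference of 1.75, and 11 of them were at least 2-fold higher, against 11.2% of all genes. The 18 machinery genes had a median of -0.05, with 9 higher, and 3 of them, WIPI1, ATG4B and SQSTM1, at least 2-fold higher. The SQSTM1 probe set used gave 1.38, but its other probe sets at the level minimum gave 2.14, 0.03 and -0.000731. No member of either class was 2-fold lower in SK-MEL-28, where 11% of all genes were. The median over all genes was -0.03. The greatest line differences were 3.22 for WIPI1 (9.30-fold), 2.62 for CTSD, 2.61 for CTSB, 2.10 for PSAP and 2.08 for LAMP2. At the other end were TFE3 at -0.77, UVRAG at -0.62, GABARAPL2 at -0.53, WIPI2 at -0.52 and ATG13 at -0.26, all smaller than 2-fold.

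The limma line difference averages both transfections. Its error, like that of the siRNA effect, reflects how far the lines disagree in their siRNA difference and not replicate spread. The line fit called 12 of 14 lysosomal members higher in SK-MEL-28, where 13.4% of all genes were called higher. At an unadjusted p under 0.05 it gave 17 of the 34 members higher and 4 lower, where 19.8% and 22.7% of all genes were. LAMP2 differed by 2.15 (SE 0.14, limma adjusted p 0.00511), CTSB by 2.35 (SE 0.17, limma adjusted p 0.00597) and CTSD by 2.18 (SE 0.28, limma adjusted p 0.0155). GLA, PSAP, NEU1, NPC1, HEXA and CTSL were called at estimates from 1.26 to 1.72, and MCOLN1, CTSZ and NPC2 at 0.99, 0.98 and 0.85. The 2 that were not called were LAMP1, at -0.02 (SE 0.12, limma adjusted p 0.906), and CTSA, at 0.88 (SE 0.21, limma adjusted p 0.0502). CTSA passed with a level minimum of 7, with values under 5 set to 5, with quantile normalization and with the median over probe sets. CTSZ and HEXA lost their calls with the median over probe sets. LAMP1 had A375 intensities of 3711 (control) and 4407 (ZIC5 siRNA) and SK-MEL-28 intensities of 3991 (control) and 3963 (ZIC5 siRNA), so that the SK-MEL-28 arrays lay between the A375 arrays.

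Of 18 machinery genes, limma called 2 higher in SK-MEL-28 and 1 lower, where 14.2% of all genes were called lower. WIPI1 was higher by 2.63 (SE 0.34, limma adjusted p 0.0159), and ATG4B, whose protease primes the ATG8 proteins, by 1.60 (SE 0.15, limma adjusted p 0.00925), with all 3 of its probe sets higher under control siRNA, by 1.08 to 1.58. GABARAPL2 was lower, with a line difference of -0.66 (SE 0.14, limma adjusted p 0.0426), and lost the call without a level minimum and without the trend in eBayes. TFE3 was lower in SK-MEL-28, at -1.16 (SE 0.26, limma adjusted p 0.0446), and lost the call without a level minimum and with the median over probe sets (limma adjusted p 0.0631 and 0.0518). UVRAG, at -0.79 (SE 0.20, limma adjusted p 0.0561), was not called, nor were WIPI2, ATG13 and SQSTM1. Both UVRAG and SQSTM1 were called by limma at a level minimum of 7 (adjusted p 0.0369 and 0.0262), UVRAG also without the trend (0.0487), and SQSTM1 also with quantile normalization (0.0391) and with the median over probe sets (0.0298). UVRAG had A375 intensities of 229 (control) and 323 (ZIC5 siRNA) and SK-MEL-28 intensities of 149 (control) and 165 (ZIC5 siRNA), so that both SK-MEL-28 arrays lay under both A375 arrays. ATG13 had A375 intensities of 263 (control) and 396 (ZIC5 siRNA) and SK-MEL-28 intensities of 220.2 (control) and 262 (ZIC5 siRNA).

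Melanocyte lineage genes moved with this line difference. All 7 measured were at least 2-fold higher in SK-MEL-28 under control siRNA, where 11.2% of all genes were. Limma called 6 of them higher, where 13.4% of all genes were called higher. MITF, the melanocyte member of the TFEB and TFE3 family, had A375 intensities of 357 (control) and 235 (ZIC5 siRNA) and SK-MEL-28 intensities of 6205 (control) and 5089 (ZIC5 siRNA), a line difference of 4.28 (SE 0.16, limma adjusted p 0.00281). Their part in the line difference of the lysosomal genes was not tested. With ZIC5 siRNA the median line difference of the lysosomal genes was 1.23, beside -0.01 for all genes. At least 2-fold higher in SK-MEL-28 were 9 of the 14, where 1621 of all 13794 genes were. MITF itself differed by -0.60 with ZIC5 siRNA in A375.

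**Figure D4:**
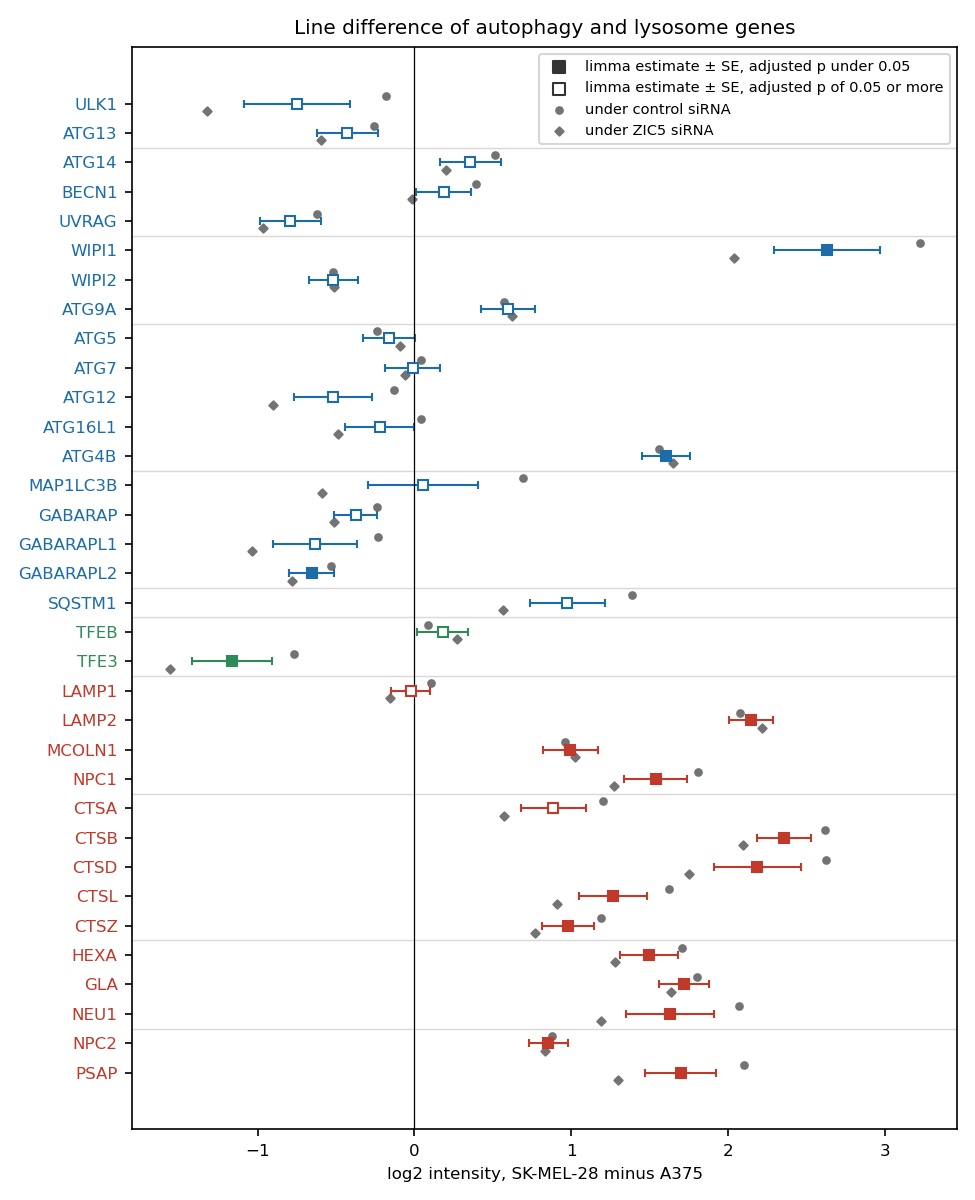
Line difference (log2 intensity, SK-MEL-28 minus A375) of the 34 members at the level minimum; squares with bars are the limma estimate and its SE over the 4 arrays, filled where the adjusted p is under 0.05, and small grey marks are the difference under each transfection. Of the red lysosomal names 12 of 14 are filled and lie between 0.85 and 2.35, while most blue machinery names are open and lie on both sides of 0.

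Other genes of the pathway were read from 7 further lists. Among 20 further machinery genes 16 were higher in A375 (48.5% of all genes), with a median of 0.17. Of these 1, the lipid reader WDR45 (1.02), was 2-fold higher, where 3.89% of all genes were. Others were ATG2A, a lipid transfer protein, at 0.86, the UVRAG-binding inhibitor RUBCN at 0.72 and the protease ATG4C at -0.96. Their SK-MEL-28 differences were 0.15, 0.13, 0.43 and -0.07. Among 12 receptors the A375 median was 0.34, and the SK-MEL-28 median 0.09. OPTN and CALCOCO2, which bring in bacteria and mitochondria, were higher in A375 by 1.18 and 0.999. RETREG1, a receptor for the endoplasmic reticulum, differed by -1.06 and -0.46. PHB2, a protein of the inner mitochondrial membrane also known as a mitophagy receptor, had A375 intensities of 6350.0 (control) and 1748 (ZIC5 siRNA) and SK-MEL-28 intensities of 2499 (control) and 504 (ZIC5 siRNA), differences of -1.86 and -2.31, so both ZIC5 siRNA arrays lay under both control arrays.

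Most genes of fusion and of the proton pump were slightly higher with ZIC5 siRNA in A375. Of 15 fusion genes 13 were higher in A375, with a median of 0.31, and 10 in SK-MEL-28, with a median of 0.10. The SNARE protein SNAP29 differed by 0.57 and 0.53, the RAB7 adaptor PLEKHM1 by 0.75 and -0.02, the HOPS tether subunit VPS41 by 0.59 and 0.12, and TECPR1 by 0.40 and 0.31. Of 14 genes of the V-ATPase, which acidifies the lysosome, 11 were higher in A375 with a median of 0.38 and 8 in SK-MEL-28 with a median of 0.09. Its subunit genes ATP6V1H (0.83 and 0.44) and ATP6V1A (0.63 and 0.39) were higher in both lines, and ATP6V1D and ATP6V1E1 were higher by 0.70 and 0.52 in A375. None of the fusion or pump genes was 2-fold different in either line.

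In the wider set of lysosomal genes the A375 differences were centred near 0. Of 29 further hydrolases at the level minimum 15 were higher in A375 (48.5% of all genes), with a median of 0.05. In SK-MEL-28, 9 of them were higher (50.2% of all genes), with a median of -0.17. At least 2-fold lower in A375 were 4 of the hydrolases: the galactosylceramidase GALC (-1.17), the thioesterase PPT1 (-1.06) and the cathepsins CTSS (-1.08) and CTSH (-1.17), where 5.05% of all genes were. CTSS had A375 intensities of 60.5 (control) and 28.6 (ZIC5 siRNA), the second of them under 32 and near the low end of the scale. The nuclease DNASE2 was the 1 that was 2-fold higher, by 1.14, where 3.89% of all genes were. CTSK and CTSC differed by -0.78 and 0.56. GALC, PPT1 and CTSS were also lower in SK-MEL-28, at -0.65, -0.66 and -0.55. Of 12 further membrane and sorting genes 6 were higher in A375 (48.5% of all genes), with a median of 0.05. IGF2R, the receptor that sorts hydrolases to the lysosome, was higher by 1.52 and 0.54, while the membrane proteins TMEM192 and LAPTM4B and the cystine exporter CTNS were lower, at -1.51 and -1.24, -0.92 and -0.72, and -0.73 and -1.14. Among 5 further transcription regulators, FOXO3 was higher by 0.81 and 0.62, FOXO1 by 0.39 and 0.23, and the stress regulator NFE2L2 differed by 0.65 and -0.19. Over the 7 lists the limma siRNA effect called 0 genes at an adjusted p under 0.05. Before adjustment 17 of these 107 genes were under 0.05 by limma, 8 higher and 9 lower, where 5.91% and 7.31% of all genes were. Of these, PHB2 (mean difference -2.09, SE 0.17) had a limma adjusted p of 0.268, the lowest value over all genes.

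The line difference, by contrast, ran through the wider lists. Limma called 9 of 14 V-ATPase genes and 14 of 29 hydrolases higher in SK-MEL-28, beside the 13.4% of all genes. Also called higher were 7 of 12 membrane and sorting genes and 5 of 15 fusion genes. In the same order 0, 0, 0 and 1 were called lower, where 14.2% of all genes were. The further machinery and the receptors gave 2 of 20 and 3 of 12 higher, and 2 and 1 lower. The median line differences under control siRNA were 0.74 for the V-ATPase, 0.89 for the hydrolases and 0.97 for the membrane and sorting genes, against 0.03 for the further machinery and 0.10 for the receptors.

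**Figure D5:**
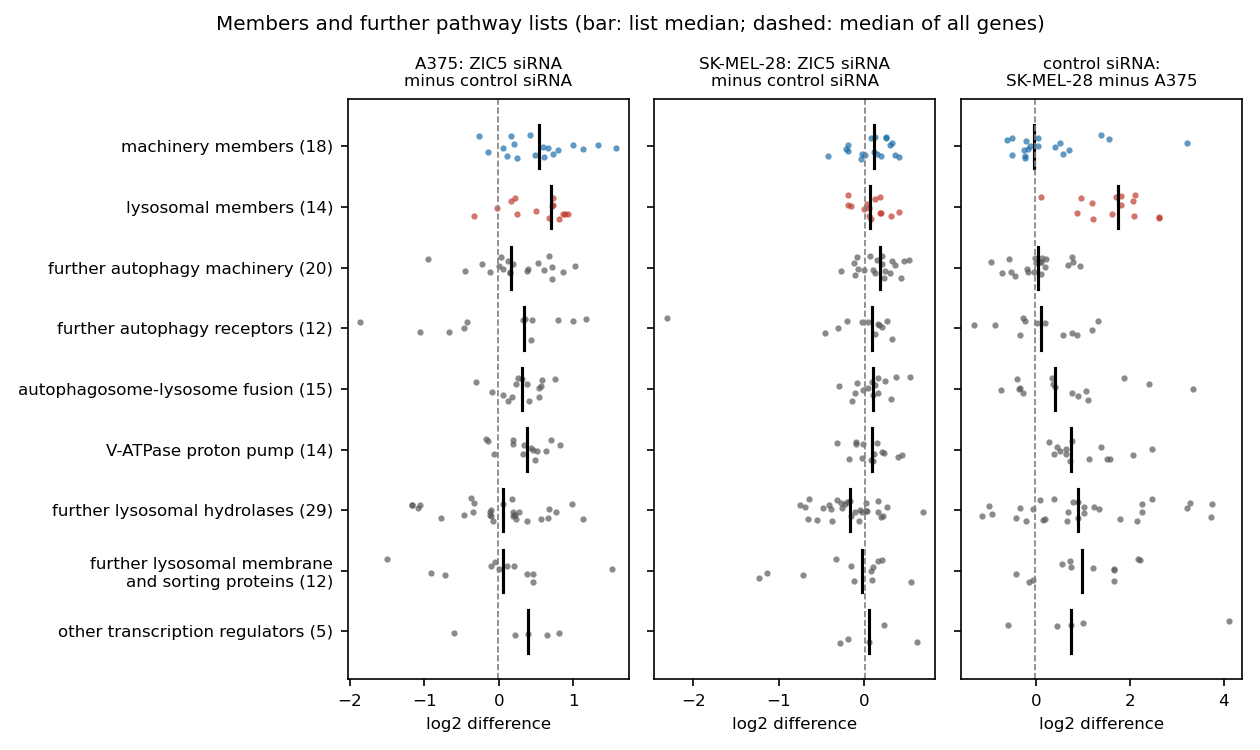
log2 differences of the machinery and lysosomal members and of the 7 further lists (genes at the level minimum in brackets), with 1 point per gene, a bar at the list median and a dashed line at the median of all genes; panels show the A375 siRNA difference, the SK-MEL-28 siRNA difference and the line difference under control siRNA. The members lie furthest right in the A375 panel, at medians of 0.54 and 0.70 against 0.05 for the further hydrolases, and the lysosomal members lie furthest right in the line panel, at 1.75.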

How the data were processed

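RNA of 4 samples, 1 per group, was labelled as biotinylated cRNA from 100 ng and hybridised to HG-U133 Plus 2.0 arrays, per the labels' protocols. The deposited intensity values, 1 per probe set and array, were summarised by RMA (Affymetrix Expression Console) by the authors, as the submitters' processing notes say. Tool versions are not given in the sources used here. Intensities are on a linear scale, and log2 was taken here. Of 54613 probe sets, 41091 named 1 gene in the platform annotation, 1801 named several and 11721 none. Symbols were checked by entrez ID against RefSeq (GRCh38.p14), where 41037 matched and 0 changed. Each gene took the probe set with the highest mean, and genes with a mean log2 of at least 5 were analysed. Within a line, a log2 difference of at least 1 (2-fold) was counted, with no test. Both the siRNA effect and the line difference were taken from an additive model of all 4 arrays (lmFit and eBayes with trend, limma 3.58.1, R 4.3.3; Benjamini-Hochberg over 13794 genes at 0.05, 1 residual degree of freedom, 2.85 prior degrees of freedom). The fit was also run on simulated arrays, without a line effect or a disagreement between lines. That run gives no measure of the power of the fit on these arrays. The labels name no separate cultures within a group. For both terms the error behind the p-values is how far the lines disagree in their siRNA difference, moderated over genes. It is not a spread between replicate arrays or cultures. Members, roles, lists and motifs were chosen with earlier results of these data known. Values on all arrays are printed for members at least 2-fold different, the ATG8 family, TFEB, TFE3 and the 5 and 5 greatest line differences, and for other genes chosen after their values were seen. From each further list the 4 genes with the greatest mean difference are named, and others, such as CTSH, after their values were seen. List genes without a probe set of their own are not analysed here.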

Additional observations from a re-analysis of the deposited data

Results flagged for a closer look

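The siRNA differences of 8 members had opposite signs in A375 and SK-MEL-28, where each line had 1 array per transfection, so the difference between lines was not tested. The other 26 of the 34 members had the same sign, 22 higher and 4 lower in both lines, where 31.5% and 32.5% of all genes were. Opposite signs were thus not more frequent among the members than among all genes. WIPI1 differed most, by 1.18 (A375 minus SK-MEL-28), then NEU1 by 0.88, CTSD by 0.87, SQSTM1 by 0.82 and ATG12 by 0.77, each higher in A375 and lower in SK-MEL-28. The SK-MEL-28 values behind these were small, from -0.20 to -0.02. LAMP1, GABARAPL2 and MCOLN1 differed by 0.26, 0.24 and -0.0608, and the signs of GABARAPL2 and MCOLN1 changed with the scaling.

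A probe set that names GABARAPL3, a near-identical copy of GABARAPL1, together with GABARAPL1 was outside the comparisons because it names several genes. It had A375 intensities of 324 (control) and 776 (ZIC5 siRNA) and SK-MEL-28 intensities of 272 (control) and 344 (ZIC5 siRNA), differences of 1.26 and 0.34, which is above its level in both control arrays. The share of each gene in that signal, and in the GABARAPL1 probe sets, cannot be told apart.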

How the results depend on the processing

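The counts of 2-fold members, the class medians and the counts of limma calls were recomputed without a level minimum, at a level minimum of 7, with a floor of 5 on the log2 values, with loess within each line (siRNA results only), quantile normalization and the median over probe sets, and for limma also without the trend and, for the siRNA effect, without the line term. Counts stayed within 1.5 times and medians moved by less than the typical SD among a member's probe sets (median 0.17 in each line). The 2-fold count in A375 was 3 except for 4 with the median over probe sets, which added WIPI1. The A375 medians ran from 0.45 to 0.54 for machinery and from 0.60 to 0.70 for lysosomal genes, and those of SK-MEL-28 from 0.05 to 0.11 and from 0.03 to 0.07. The SK-MEL-28 medians are themselves smaller than the SD of 0.17, so that bound was no check on their sign, though all stayed above 0. The siRNA effect gave 0 called members throughout (limma without the line term gave 0 members also at an unadjusted p under 0.05), and the line difference 14 to 19. Of the 68 single differences 2 changed sign with loess, 2 with quantile normalization and 6 with the median over probe sets, and none of these was 2-fold. Another 5 kept their sign but moved by more than that SD with the median over probe sets: in A375 SQSTM1 to 0.22, HEXA to 0.17 and ATG7 to 0.43, and in SK-MEL-28 ATG5 to 0.16 and CTSB to 0.66. No paired analysis was possible because each group held 1 array, other than the pairing of the arrays of a line through the line term of the siRNA fit, and no replicate could be left out. Signal near the low end of the scale limits ULK2, and the number of arrays limits all values.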

Other observations

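Some lysosomal genes outside the members had large line differences, and the genes below were chosen after their values were seen. The collagen-degrading cathepsin CTSK had A375 intensities of 139 (control) and 80.9 (ZIC5 siRNA) and SK-MEL-28 intensities of 1879.6 (control) and 1682 (ZIC5 siRNA), a limma line difference of 4.07 (SE 0.23, limma adjusted p 0.00406). CTSH was higher in SK-MEL-28 by 3.90 (SE 0.39, limma adjusted p 0.00995), the activator protein GM2A by 3.23 (SE 0.17, limma adjusted p 0.00332), the ceramidase ASAH1 by 3.20 (SE 0.30, limma adjusted p 0.00905) and EPG5, a tether of autophagosome and lysosome, by 3.10 (SE 0.22, limma adjusted p 0.00565). The hydrolases were not all higher in SK-MEL-28. CTSC, GALC, GUSB and GAA, among others, had line differences of -0.98, -0.91, -0.78 and -0.76. Their limma adjusted p-values were 0.117, 0.0511, 0.0522 and 0.0737.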
